A study of Mus musculus with 12 samples.

Results

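Gene expression was compared between CCN6KOT cells carrying a dominant negative TCF4 construct (DNTCF4) and the same cells carrying a control lentivirus (Vector), over every gene with 10 or more counts in at least 3 of the 6 libraries. This left 14537 genes of the 55487 in the table. CCN6KOT is a primary mouse line from a breast tumour of spindle metaplastic type, and each group is 3 libraries of bulk RNA. Cells of both groups were infected with lentivirus and selected with puromycin, so infection and selection are shared and only the construct differs by label. The titles read PPGS-Vector for the control and DNTCF4-Vector for the other group, so both carry the term Vector. The labels do not expand PPGS, and the promoter of the construct and the species of its sequence are not given in the sources used here. All values come from 1 line, and the labels do not say whether the libraries of a group were separate cultures, so the p-values reflect library-to-library spread that may be technical. Another 6 libraries of the series (DNTCF4 cells with a second construct labelled EZH2 or SET) entered the fit for its estimate of the spread and are named only where a level in them bears on a result.

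TCF4, the product of Tcf7l2, is a DNA-binding partner of beta-catenin in the canonical Wnt pathway. In the absence of Wnt ligand a destruction complex built on axin and APC marks beta-catenin for degradation; with ligand, beta-catenin enters the nucleus and activates genes whose TCF/LEF sites are otherwise held by corepressors. A dominant negative TCF4 keeps the DNA-binding part but lacks the part that binds beta-catenin, so it occupies sites without activating them. Metaplastic breast carcinomas of the spindle type have lost most epithelial features and resemble mesenchymal cells.

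Library totals ran from 23597530 to 31601269 counts, and 0 counts in a library allow a level of up to 0.0955 to 0.125 CPM (a gene's counts as a share of its library, with library sizes scaled by TMM), by 3 counts and for counting error only. DNTCF4 replicate 1 stood apart: its chi-square against its partners, divided by the degrees of freedom, was 20.9 and 13.2, while the other pairs of replicates had between 2.43 and 3.71, also beyond sampling noise. More features had a count in the Vector libraries (22889 to 24539) than in the DNTCF4 libraries (20125 to 20353). Ccn6 had no count in the 6 libraries. Defining markers of blood cells were at or near 0, although the 7 leukocyte markers summed to 6.49 to 7.41 CPM in Vector and 5.73 to 8.45 in DNTCF4 and the 11 macrophage markers to 54.1 to 57.7 and 47.8 to 68.9, mostly Cd68 (52.7 ± 1.88 and 55.7 ± 11.1). Ptprc lay at 0.39 CPM in Vector and 0 in DNTCF4, C1qa, C1qb, C1qc and Cd3d had no count, and the 8 lymphocyte markers summed to at most 1.65 CPM. Of 10 neutrophil markers only S100a8 passed the filter, rising from 10.9 ± 0.587 to 48.7 ± 3.14 CPM (mean ± SD, n = 3), while S100a9 averaged 0.0247 and 0.123 CPM. Epithelial markers summed to 416 to 426 CPM in Vector and 405 to 459 in DNTCF4, nearly all of it Krt18, Krt8 and Krt7, while Epcam (0.21 and 0.22 CPM) and Krt5 (0) were almost absent. Mesenchymal markers summed to between 11506 and 12460 CPM in Vector and between 5281 and 5797 in DNTCF4, a drop carried by Fn1, Col1a1, Col1a2 and Vim, while Thy1 and Twist1 had no count in either group. In bulk RNA, fewer cells of a type and less RNA per cell cannot be told apart.

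Most genes tested differed between the groups, and mostly by small steps. By edgeR's quasi-likelihood test, two-sided, with p-values adjusted by Benjamini-Hochberg over the genes tested and called under 0.05, 8490 genes changed (58.4% of those tested). Of these, 4500 were higher in DNTCF4 (31.0%) and 3990 lower (27.4%), and the median size of a called change was 1.32-fold. As many as 3244 called genes moved by less than 1.25-fold (22.3%). Changes of 2-fold or more were called in 874 genes that rose (6.01%) and 720 that fell (4.95%), and of 16-fold or more in 79 (0.543%) and 118 (0.812%). The libraries of both groups did not overlap in 8743 genes (60.1%). The median log2 change over all genes tested was 0.02. Large changes were commoner among weakly expressed genes: 592 of the 1594 changes of 2-fold or more lay under a mean of 1 CPM and 75 at 100 CPM or above, as the plot of change against level shows. Without DNTCF4 replicate 1, 4318 genes rose and 4527 fell.

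**Figure D1:**
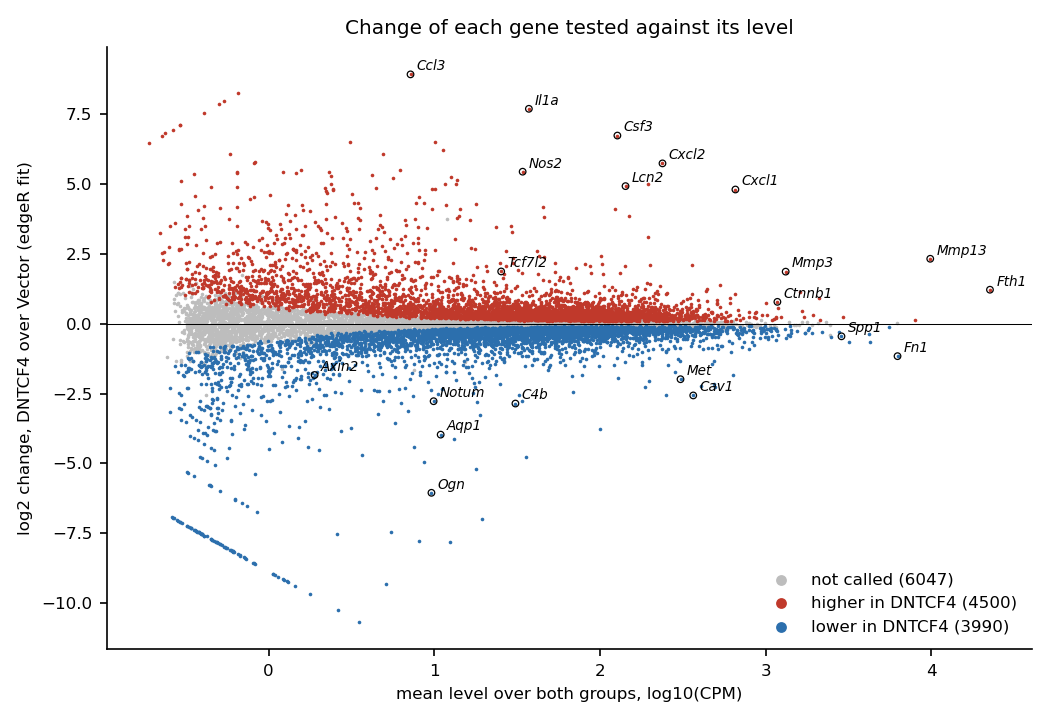
Each point is 1 of the 14537 genes tested, placed by its mean level over both groups (log10 CPM) and its fitted log2 change in DNTCF4 over Vector; red genes were called higher, blue genes lower and grey genes not called. The straight lines of points at the lower and upper left are genes without counts in one group, whose fitted change is no measure of size; Mmp13 and Fth1 stand at the far right among the rises and Fn1 among the falls.

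Genes of the Wnt pathway moved in both directions. The construct's own gene comes first: Tcf7l2 (chromosome 19, 55741820 to 55933654, GRCm38) lay at 8.55, 13.5 and 10.8 CPM in the Vector libraries and at 36.8, 41.4 and 41 in the DNTCF4 libraries. The groups were well apart, a 3.63-fold rise (log2 1.86, SE 0.11, adjusted p = 9.97e-10), though counts per gene cannot tell the endogenous transcript from one of the construct. Ctnnb1, which encodes beta-catenin, stood at 871, 858 and 876 CPM against 1568, 1434 and 1458, again without overlap and 1.71-fold higher (log2 0.78, SE 0.035, adjusted p = 4.22e-11). Of the 18 tested TCF/LEF factors and beta-catenin partners 9 rose and 6 fell, with a median log2 change of 0.11. Taken library by library against the mean of Vector, the median was -0.06 for DNTCF4 replicate 1 and 0.17 for each of its partners. The other TCF genes Tcf7l1 and Tcf7 rose by 0.40 and 0.24 on the log2 scale with overlapping libraries, and Lef1, at 0.52 CPM in Vector and 0.01 in DNTCF4, had too few counts to be tested. The call of Tcf7 was lost without Vector replicate 2 or 3 (log2 0.19 and 0.24) or DNTCF4 replicate 2 or 3 (0.20 and 0.17). Among the coactivators that bridge beta-catenin to transcription, Pygo1 rose 3.65-fold from 0.597 ± 0.368 to 2.21 ± 0.232 CPM, while Bcl9l and Bcl9 fell by 0.43 and 0.26 and Pygo2 was not called (log2 -0.02). The Groucho corepressors were divided too: Tle3, Tle2 and Tle4 rose and Tle1 and Tle5 fell.

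Of 17 tested genes of the beta-catenin destruction complex and its regulators 13 rose in small steps and 1 fell. The median log2 change was 0.28, against 0.02 over all genes. The tankyrase and dishevelled genes in this list act on the complex and are not parts of it. The largest of these rises were in the tankyrase gene Tnks2, whose product targets axin for degradation, at 1.61-fold from 272 ± 3.43 to 438 ± 48.4 CPM, and in the kinase gene Gsk3b at 1.43-fold from 181 ± 7.04 to 260 ± 7.32 CPM. The F-box gene Btrc, the dishevelled genes Dvl1, Dvl2 and Dvl3 and the kinase gene Csnk1a1 rose by between 0.29 and 0.42. Apc rose by 0.11 with overlapping libraries (adjusted p = 0.0291), a call lost without Vector replicate 2 or 3 or DNTCF4 replicate 1 or 3 (log2 0.08, 0.10, 0.06 and 0.11). Axin1, Gsk3a and Csnk1e were not called, although Csnk1e rose by 0.09 without DNTCF4 replicate 1. The member that fell was Axin2, the scaffold gene that is itself a Wnt target. It stood at 2.65, 2.75 and 3.5 CPM in Vector and 0.758, 0.764 and 0.955 in DNTCF4, with no overlap (3.57-fold, log2 -1.84, SE 0.19, adjusted p = 7.05e-07). Without DNTCF4 replicate 1, 11 members rose and 1 fell.

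Of 19 tested Wnt feedback and target genes 6 were higher and 8 lower, with a median log2 change of -0.15. The share that rose is near that over all genes tested (31.0% higher and 27.4% lower). Notum, an enzyme that inactivates Wnt ligands, went from 16.6, 17.8 and 17.5 CPM to 2.01, 2.77 and 2.76, and Ccnd1, encoding cyclin D1, from 322, 338 and 341 to 170, 161 and 162. The ubiquitin ligase gene Znrf3, which removes Wnt receptors, fell by 0.42, the R-spondin receptor gene Lgr4 by 0.33 and the ephrin receptor gene Ephb3 by 0.51. In the other direction, the receptor-level inhibitor gene Apcdd1 rose 12.7-fold from 0.191 ± 0.0295 to 2.49 ± 0.168 CPM, and the Notch ligand gene Jag1 1.71-fold and Ephb2 1.47-fold. Sp5 lay at 1.8 ± 0.381 CPM in Vector and 1.43 ± 0.574 in DNTCF4 and was not called (adjusted p = 0.298), nor was Myc (log2 -0.07, adjusted p = 0.409). Another 11 of the 30 genes in the list, among them Nkd1, Rnf43 and Lgr5, were too low to test. Taken library by library against the mean of Vector, the median of the list was -0.29 for DNTCF4 replicate 1 and -0.03 and 0.00 for its partners, and the fit without that library gave -0.06.

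TCF/LEF proteins recognise a short core, and the sequences before the starts of the genes that fell show where these letters lie. The core was searched as CTTTGAT and, on the other strand, ATCAAAG, in RefSeq windows of 300 bases (250 before and 50 after each start, GRCm38.p6). Of the genes that fell by 2-fold or more 25 of 448 with a window held the letters (5.58%), of those that rose 13 of 582 (2.23%), of all genes tested 318 of 10581 (3.01%), and of all RefSeq windows 1225 of 32851 (3.73%). Windows matched only 62.2% and 66.6% of the genes in those sets, so the comparison of shares is void. Among genes of at least 10 CPM in the higher group, 6 of the 123 with a window that fell by 2-fold or more held the core (4.88%), against 214 of 7590 over all genes tested of that level (2.82%). A stretch of 5 of them is shown, with the core in capitals, because these are the well expressed genes that fell by 2-fold or more and carry it close to their starts; the sequence of the remaining one, AI413582, reaches past the start.
Emb (chr13:117220401-117220439, plus strand): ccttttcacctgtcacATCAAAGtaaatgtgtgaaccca
Aif1l (chr2:31950148-31950186, plus strand): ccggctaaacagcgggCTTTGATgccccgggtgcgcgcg
Serpinb9b (chr13:33027247-33027285, plus strand): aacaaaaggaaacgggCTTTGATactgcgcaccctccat
Phospho1 (chr11:95824418-95824456, plus strand): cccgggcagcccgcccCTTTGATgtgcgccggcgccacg
Lmo7 (chr14:101840526-101840564, plus strand): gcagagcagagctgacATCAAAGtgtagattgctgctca
Emb, a membrane partner of lactate transporters, stood at 229, 227 and 225 CPM in Vector and 119, 96.7 and 107 in DNTCF4, and its core lies 156 bases before the start. Aif1l went from 80.3 ± 3.42 to 34.7 ± 1.04 CPM (core at 139 bases), Serpinb9b, a protease inhibitor gene with near copies beside it, from 46.5 ± 1.73 to 21 ± 1.17 (151 bases), Phospho1, a phosphatase gene of mineralising cells, from 36.6 ± 1.76 to 18.2 ± 3.19 (66 bases) and Lmo7 from 16.1 ± 0.427 to 5.88 ± 0.48 (81 bases). In none of these 5 genes did the libraries of the groups overlap, as in 60.1% of all genes tested. Their choice as called genes with falls of 2-fold or more favours such a gap. Serpinb9b lies in a stretch of chromosome 13, described below, in which all 10 genes were lower. A match of letters is a description and not a bound site. Among genes of that level that rose by 2-fold or more, 1 of 158 with a window held the core (0.633%), Dalrd3. Windows matched 64.1% and 66.9% of these smaller sets, so this comparison is void as well.

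Several of the largest rises were those of cytokine and chemokine genes. Csf3, encoding the granulocyte colony-stimulating factor (chromosome 11, 98701263 to 98703629), stood at 2.28, 2.53 and 2.37 CPM in Vector and at 239, 264 and 254 in DNTCF4. Cxcl2, a chemokine for neutrophils, went from 9.82, 8.73 and 7.95 CPM to 479, 477 and 448 (52.9-fold, log2 5.72, SE 0.061, adjusted p = 1.87e-18), and its neighbour Cxcl1 from 47.3, 42.9 and 47.2 to 1490, 1159 and 1154 (27.7-fold). In each of these genes the lowest DNTCF4 library lay more than 20 times above the highest Vector library. Il1a, an interleukin released by damaged cells, lay at 0.448, 0.44 and 0.166 CPM in Vector and at 80.1, 71 and 71.3 in DNTCF4, and Ccl3 had 2 counts over the Vector libraries and 1222 over the DNTCF4 libraries, a ratio of 561 (95% exact interval 155 to 4640, counting error only). The plot of genes by library shows the 15 largest rises among called genes of at least 10 CPM in the higher group. Predicted models, unnamed clones and genes with overlapping libraries were left out of it. These rises also include Dapk1, Nos2, Cd34 and Cck, described below.

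**Figure D2:**
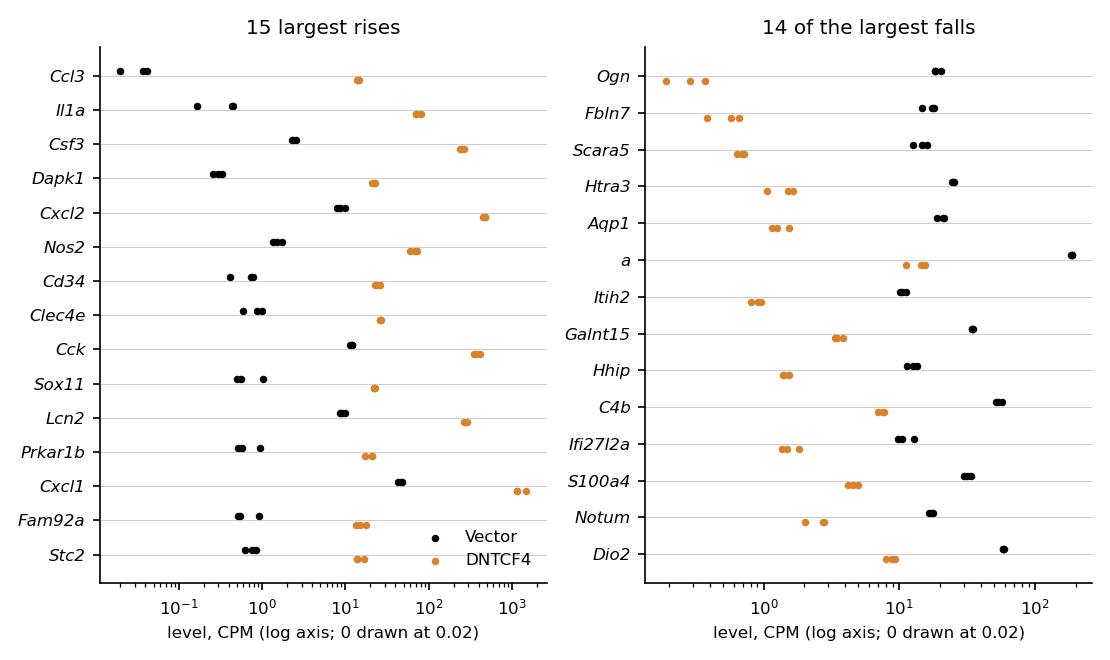
Level of each gene in each library, in CPM on a log axis, for the 15 genes that rose most and 14 of those that fell most, with at least 10 CPM in the higher group and predicted models left out; black points are the 3 Vector libraries and orange points the 3 DNTCF4 libraries. Only genes with separate Vector and DNTCF4 libraries could be drawn. The gap between black and orange points in the 29 genes is therefore a condition of the choice and not a result. Ccl3 has 0 counts in 1 Vector library, and Csf3 and Cxcl1 average 252 and 1268 CPM in DNTCF4.

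Of 12 tested colony-stimulating factors and CXC chemokines 8 rose and 2 fell, with a median log2 change of 0.83. Csf2, the granulocyte-macrophage factor, rose 19.2-fold to 34 ± 1.91 CPM and Cxcl5 8.62-fold to 349 ± 87.3 CPM. Cxcl3, in the same chemokine cluster as Cxcl1 and Cxcl2, began much higher, at 315, 310 and 306 CPM, and reached 477, 431 and 434, a 1.44-fold rise. Csf1, the macrophage factor, moved the other way, from 403, 423 and 438 CPM to 164, 179 and 180 (2.42-fold lower, log2 -1.27, SE 0.043, adjusted p = 1.43e-12), as did Ppbp. The interferon-induced chemokine genes Cxcl10 and Cxcl11 were not called (log2 -0.34 and -0.64), but Cxcl10 fell by 0.49 without DNTCF4 replicate 3. Of 12 CC chemokine genes 6 rose and 2 fell: the monocyte chemokine genes Ccl2 and Ccl7 rose 3.2-fold and 6.44-fold to 97.9 ± 0.544 and 28.7 ± 1.84 CPM, and Ccl9 and Ccl8 fell by 1.05 and 1.51. Without Vector replicate 3, and also without DNTCF4 replicate 2, 4 CC chemokine genes fell.

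The sequences just before the starts of Cxcl1, Cxcl2 and Cxcl3 are shown because these neighbours on chromosome 5 rose and hold letters that NF-kappaB, a family of transcription factors that drives such genes, recognises. They were picked for holding them: Ppbp, beside Cxcl3, fell and its window holds none. Matches to GGG, any 2 bases and TTTCC, or GGAAA, any 2 bases and CCC on the other strand, are in capitals in the 120 bases before each start (RefSeq, GRCm38.p6).
Cxcl1 (chr5:90891125-90891244, plus strand): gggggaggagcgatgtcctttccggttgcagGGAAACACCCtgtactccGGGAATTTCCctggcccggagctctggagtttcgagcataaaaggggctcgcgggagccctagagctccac
Cxcl2 (chr5:90903779-90903898, plus strand): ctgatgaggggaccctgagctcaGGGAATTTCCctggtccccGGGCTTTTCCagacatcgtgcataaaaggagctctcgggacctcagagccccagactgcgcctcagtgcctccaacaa
Cxcl3 (chr5:90785981-90786100, plus strand): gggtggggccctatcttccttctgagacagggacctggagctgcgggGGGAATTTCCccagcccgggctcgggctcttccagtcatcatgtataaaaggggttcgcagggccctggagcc
Cxcl1 and Cxcl2 hold 2 matches each, at 89 and 71 and at 97 and 78 bases before the start, and Cxcl3 holds 1, at 73 bases. The genes are duplicates of each other, so shared letters are not independent. Csf1 and Ccl9, which fell, hold a match too, at 154 and 35 bases before their starts. Of all genes tested with a window 2.06% held a match, and of all RefSeq windows 1.63%. In the sets that changed by 2-fold or more it was 3.61% of 582 genes that rose and 2.68% of 448 that fell, shares that cannot be compared for want of windows, as above.

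Genes that make and answer interleukin 1 rose in 10 of 14 cases and fell in 2, with a median log2 change of 0.52. Besides Il1a, Il1f9 rose 9.5-fold to 4.06 ± 0.181 CPM, and Il1f6, without a count in Vector, was at least 34-fold higher by a floor of 3 counts over the group, which leaves the median at 0.52. The receptor genes Il1r1, Il1rap and Il18r1 rose as well, by 0.49, 0.57 and 2.89, while Il1rl1, the receptor of interleukin 33, fell 1.95-fold and Il18 2.1-fold. Of 25 NF-kappaB subunits, kinases and inhibitors 18 rose and 2 fell (median 0.34). Several are inhibitor and cofactor genes that NF-kappaB is known to induce: Nfkbiz stood at 57.9, 60.4 and 58 CPM against 207, 205 and 210, Nfkbia at 63.8, 62 and 62.6 against 127, 142 and 133, and Tnfaip3 rose 2.13-fold to 109 CPM. All 3 kept their groups apart, as did 60.1% of all genes tested. The largest fitted rise of the list was that of Nfkbid, which had 2 counts in Vector and 59 in DNTCF4, a ratio of 27.1 (95% exact interval 7.18 to 229, counting error only). The subunit genes Nfkb1 and Nfkb2 rose by 0.66 and 0.43, and Rela, Rel and Relb were not called (0.13 or less), though without DNTCF4 replicate 1 Rela and Relb rose by 0.22 and 0.14. Bcl10, which rose 2.45-fold, lies in a stretch of chromosome 3 where most neighbours rose, described below. Map3k14 and Birc3 were the members that fell.

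Of 18 genes of the interleukin 6 family and STAT3 signalling 8 rose and 6 fell, beside 31.0% and 27.4% over all genes tested. Il6 rose 6.17-fold to 17.4 ± 2.07 CPM and the leukaemia inhibitory factor gene Lif from 97.2, 96.1 and 96.3 CPM to 237, 235 and 247, whereas Il11 fell 2.83-fold to 8.88 ± 0.854 CPM. Of 17 TNF family genes 8 rose and 6 fell, with Tnf itself 4.45-fold higher at 4.6 ± 0.915 CPM and Tnfrsf12a, the TWEAK receptor gene, 1.48-fold lower.

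Acute phase and complement genes changed strongly and in opposite directions, 10 higher and 5 lower of 17, with a median log2 change of 1.67 that is the highest of the 43 lists. Taken library by library against the mean of Vector, with a small amount added to each level, the median was 0.99, 1.09 and 1.05. The iron-sequestering lipocalin gene Lcn2 went from 9.85, 9.06 and 8.57 CPM to 264, 280 and 285, and the serum amyloid gene Saa3 from 21.2, 19 and 18.4 to 249, 301 and 286. Both were more than 10-fold higher in each DNTCF4 library than in any Vector library. Among the complement genes, C3 and the alternative pathway factor gene Cfb rose by 1.05 and 1.77. The classical pathway genes C4b, C1ra and C1s1 fell by 2.86, 0.93 and 0.65. Cd55, a membrane inhibitor without a count in Vector, was at least 13.5-fold higher, which leaves the median at 1.67.

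Of 14 tested prostaglandin genes 6 were higher, 1 was lower and 7 were not called, with a median log2 change of 0.26. Over all genes tested 31.0% were higher and 27.4% lower. Ptgs2, the inducible cyclooxygenase gene, went from 1434, 1472 and 1464 CPM to 2993, 2598 and 2623, among the 8 largest gains of the comparison in CPM. The synthase gene Ptges rose 2.6-fold to 769 ± 5.24 CPM and the receptor gene Ptger3 13.1-fold from 2.32 ± 0.0486 to 30.5 ± 0.422 CPM. Akr1b3 fell 2-fold, and without DNTCF4 replicate 1 a second member fell. The inducible nitric oxide synthase gene Nos2, which belongs to no list, stood at 1.53, 1.72 and 1.37 CPM in Vector and 59.5, 72.1 and 68.7 in DNTCF4.

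Of 30 listed interferon response genes 20 fell and 2 rose, with a median log2 change of -0.36. The guanylate-binding genes Gbp7, Gbp2, Gbp3 and Gbp2b are not in the list and rose, by 0.59, 0.33, 0.16 and 1.95. They lie together at one end of the chromosome 3 stretch described below. The transcription factor gene Irf7 fell by 0.90 and the antiviral genes Ifit1 and Rsad2 by 1.25 and 0.96. Ifit3 fell 2.89-fold, though it has near copies whose reads may be shared. Ifit1 and Ifit3 lie together in a stretch of chromosome 19 described below. The transcription factor genes Irf9 and Stat2 were not called (log2 -0.14 and 0.06). The sensor gene Ifih1 and Parp14 rose by 0.27 and 0.23. Ifih1 lost its call without Vector replicate 2 or 3 or DNTCF4 replicate 1 (0.23, 0.22 and 0.17), and Irf9 fell by 0.19 without DNTCF4 replicate 2. Without DNTCF4 replicate 1 the counts were 24 lower and 1 higher, and without DNTCF4 replicate 2 21 lower and 4 higher. MHC class I and antigen processing genes were higher in 11 of 20 cases and lower in 3 (median 0.16); H2-K1 and H2-D1 rose by 0.42 and 0.23 and B2m was not called, and the larger rises of H2-Q6 and H2-Q7 are of near-identical genes.

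Matrix metalloproteinases cut collagen and other matrix proteins, and of the 10 tested in their cluster on chromosome 9, 5 rose, 2 fell and 3 were not called. Mmp13 (7272514 to 7283331), the interstitial collagenase of the mouse, stood at 3355, 3252 and 3282 CPM in Vector and 18334, 15218 and 15663 in DNTCF4 (4.98-fold, log2 2.32, SE 0.056, adjusted p = 2.11e-14). By itself it gained 13108 CPM, after Fth1 the second largest gain of any called gene. Mmp12, the macrophage elastase, went from 13.1, 15 and 12.5 CPM to 248, 221 and 233 (17.3-fold), and the stromelysin gene Mmp3 from 554, 574 and 588 to 2150, 1999 and 2060. Mmp10 rose 1.79-fold to 649 ± 31.8 CPM and Mmp1b 1.91-fold to 29.5 ± 2.97. Among the weakly expressed members between and beside them, Mmp8 and Mmp20 fell from 1.77 ± 1.11 and 1.55 ± 0.47 CPM, and Mmp1a, Mmp27 and Mmp7 were not called. In Vector, Mmp8 (1.01, 3.04 and 1.25 CPM) and Mmp20 (1.31, 2.09 and 1.25) were highest in replicate 2, as were the receptor genes described below.

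The neighbours of the cluster on both sides, which are among the most abundant transcripts of the line, moved the other way. Dcun1d5, on one side, fell from 2893, 2826 and 2928 CPM to 2222, 2037 and 1977, and on the other side Tmem123 fell 1.56-fold to 2479 ± 248 CPM and the Hippo effector gene Yap1 from 4779, 4716 and 4801 CPM to 3846, 3522 and 3605. These 3 genes are among the 8 largest losses in CPM. Birc2, between Tmem123 and Yap1, was not called (log2 0.03) and fell by 0.11 without DNTCF4 replicate 1.

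AP-1, the Fos and Jun dimer known to drive collagenase and stromelysin genes, recognises TGAGTCA, or TGACTCA on the other strand. The 120 bases before the starts of the 4 genes that rose with a RefSeq window holding the letters are shown for that reason, with matches in capitals.
Mmp13 (chr9:7272394-7272513, plus strand): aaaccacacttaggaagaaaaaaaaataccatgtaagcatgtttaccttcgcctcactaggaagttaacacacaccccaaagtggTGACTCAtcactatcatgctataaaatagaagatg
Mmp12 (chr9:7347254-7347373, plus strand): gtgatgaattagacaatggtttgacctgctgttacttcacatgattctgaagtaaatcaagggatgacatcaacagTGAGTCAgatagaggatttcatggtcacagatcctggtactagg
Mmp3 (chr9:7445702-7445821, plus strand): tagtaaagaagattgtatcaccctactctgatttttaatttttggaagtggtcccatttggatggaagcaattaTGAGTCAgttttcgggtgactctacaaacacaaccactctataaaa
Mmp10 (chr9:7502222-7502341, plus strand): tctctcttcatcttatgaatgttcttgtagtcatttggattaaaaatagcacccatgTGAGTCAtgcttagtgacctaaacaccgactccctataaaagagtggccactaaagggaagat
The match lies 35, 44, 46 and 63 bases before the start in Mmp13, Mmp12, Mmp3 and Mmp10. For Mmp12 this is the second of 2 RefSeq starts, inside the gene, and the window of its first start holds no match. Mmp7, in the same cluster and not called, holds the letters too, at 63 bases before its start. Of all genes tested with a window 4.9% held the letters anywhere in the 300 bases, and of all RefSeq windows 5.2%. Of genes that rose by 2-fold or more 7.56% of 582 held them, and of those that fell 7.14% of 448, shares that are void for the same want of windows. The AP-1 and immediate early genes themselves were 10 higher and 8 lower of 22: Fosl2, Fosl1, Jund and Jun rose by 0.39, 0.27, 0.31 and 0.23, while Fos fell by 0.65 and Egr1 from 90.5 ± 3.51 to 32.7 ± 4.23 CPM. Jun lost its call without Vector replicate 2 (0.18), and Fosl1 without Vector replicate 1 or DNTCF4 replicate 2 or 3 (0.23, 0.16 and 0.23).

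Inhibitors of these proteases fell as the proteases rose. Timp1 went from 75.4, 74.5 and 70.6 CPM to 26.1, 28.2 and 25.1, and Timp3 from 367, 390 and 382 to 133, 135 and 137, with Timp2 lower by 0.14. Mmp9, on another chromosome, rose 19.3-fold to 4.25 ± 0.766 CPM, and Mmp2 and Mmp14 by 0.14 and 0.25. In all 12 of 24 genes of the list rose and 8 fell. Of the plasminogen system, the inhibitor gene Serpine2 rose 2.97-fold and the receptor gene Plaur fell 1.57-fold.

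Of 19 tested matrix glycoproteins 16 fell and 2 rose, with a median log2 change of -0.79. Fn1, encoding fibronectin, lost more CPM than any other called gene, from 8297, 8988 and 8659 to 3537, 4005 and 4029. The thrombospondin genes Thbs1 and Thbs2 fell 2.57-fold and 4.34-fold, the fibrillin gene Fbn1 by 1.34, and Sparc by 0.85, whereas tenascin C (Tnc) rose by 0.89 and Emilin1 by 2.26. The collagen chains were less uniform, 10 lower and 6 higher of 19 (median -0.26), beside 27.4% lower and 31.0% higher over all genes tested. Fibrillar collagen I fell in both chains, Col1a2 from 797, 841 and 828 CPM to 168, 173 and 167 and Col1a1 from 909, 1052 and 1022 to 258, 303 and 277, and its organiser Col12a1 fell 3.6-fold. The basement membrane pair Col4a1 and Col4a2 rose by 0.32 and 0.43, and Col27a1 by 2.41. Enzymes that modify and crosslink collagen fell in 13 of 19 cases and rose in 2 (median -0.43), led by the lysyl oxidase genes Loxl4, from 316, 321 and 318 CPM to 72.1, 78.9 and 80, and Loxl3, 3.03-fold lower.

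**Figure D3:**
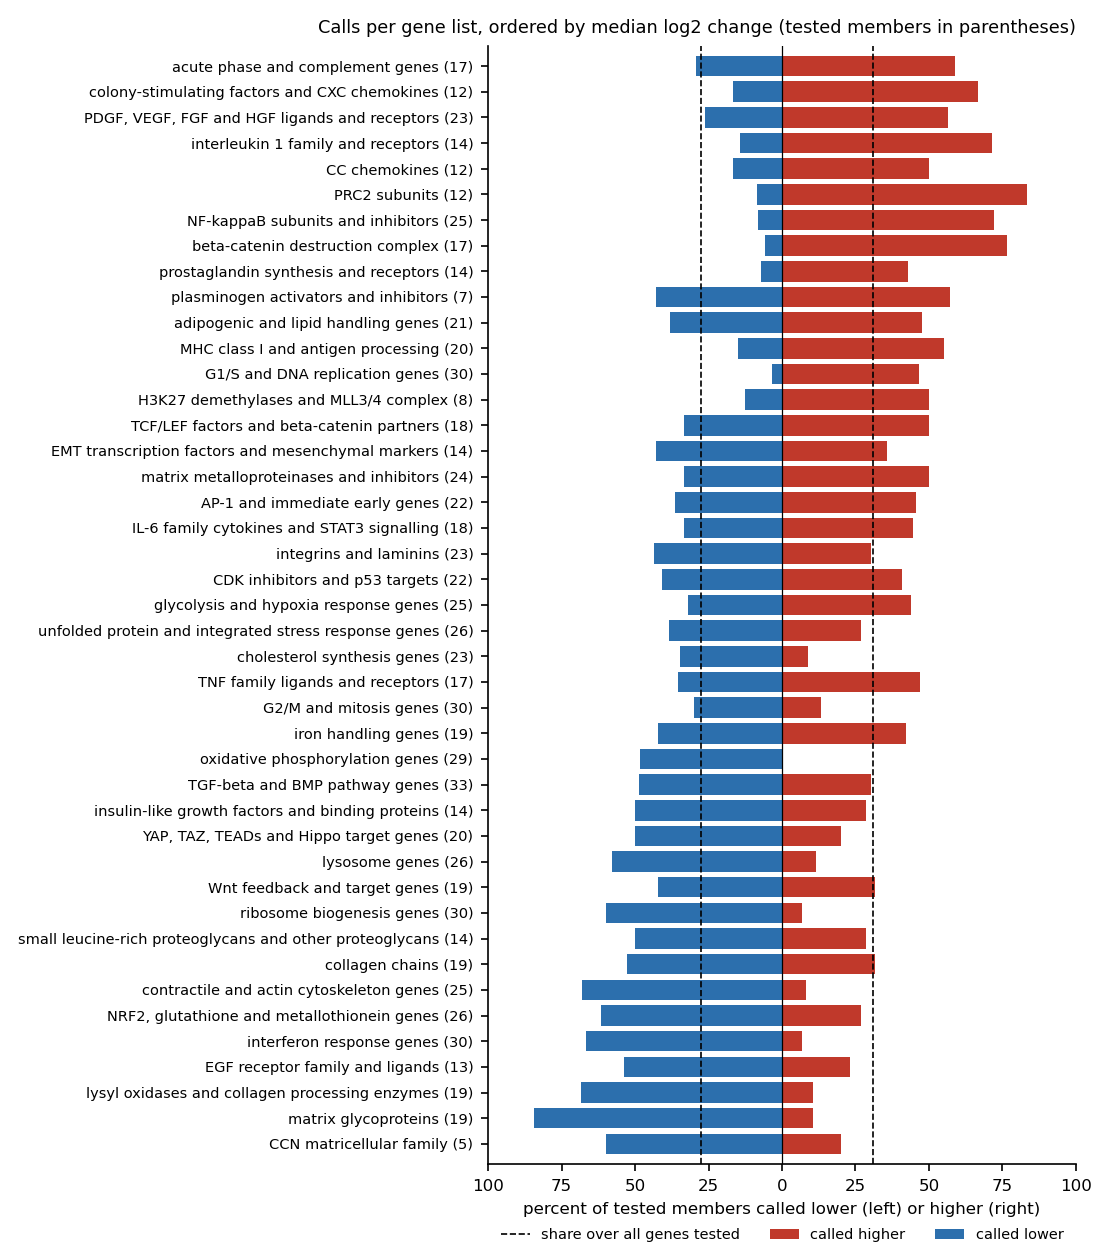
For each of the 43 gene lists, the percent of its tested members called higher (red, right) or lower (blue, left) in DNTCF4, with the lists in order of their median log2 change and the number of tested members in parentheses. Dashed lines mark the shares over all genes tested, 31.0% higher and 27.4% lower; matrix glycoproteins (16 of 19 lower), oxidative phosphorylation genes (14 of 29 lower, 0 higher) and PRC2 subunits (10 of 12 higher) lie far from them.

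Proteoglycans held some of the largest single changes in both directions. Ogn, encoding the small leucine-rich osteoglycin (chromosome 13, 49608046 to 49624501), had the largest fall among genes of at least 10 CPM in Vector once predicted models are left out, from 18.4, 20.2 and 18.3 CPM to 0.19, 0.287 and 0.367 (66.1-fold, log2 -6.05, SE 0.16, adjusted p = 5.56e-14). Its relative Dcn, decorin, rose from 74.7, 77.9 and 73.8 CPM to 344, 316 and 314, and the syndecan gene Sdc3 4.42-fold to 169 ± 16.6 CPM. The list as a whole had 4 rises and 7 falls of 14, beside 31.0% and 27.4% over all genes tested. Fbln7, a fibulin, and Htra3, a secreted serine protease, fell 30.7-fold and 17.6-fold and belong to the 15 largest falls too.

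CCN proteins are secreted matricellular regulators, the family of Ccn6, after which the line is named. Ccn2 stood at 63.9, 67.8 and 66.6 CPM in Vector and 23.2, 25.3 and 23.6 in DNTCF4, Ccn5 fell 2.54-fold to 14.9 ± 0.83 CPM and Ccn4, a Wnt target, from 35.2, 34.9 and 33.7 to 16.5, 15.5 and 13.4. Ccn1 was the exception, at 410, 442 and 417 CPM against 702, 865 and 796 (1.86-fold higher, log2 0.90, SE 0.058, adjusted p = 3.12e-09), and it lies in the stretch of chromosome 3 described below. Ccn3 was not called (log2 -0.12); without DNTCF4 replicate 1 all members but Ccn1 fell. Ccn1 and Ccn2 are also known targets of YAP. Of 20 Hippo genes and targets 4 rose and 10 fell (median -0.13); the receptor kinase gene Axl fell 1.89-fold to 356 CPM, and Ankrd1, Amotl2 and Wwtr1 (TAZ) were not called, although Ankrd1 fell by 0.09 without DNTCF4 replicate 1.

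Of 25 contractile and actin cytoskeleton genes 17 fell and 2 rose, with a median log2 change of -0.31. Acta2, the smooth muscle actin of myofibroblasts, went from 30.8, 32.1 and 27.2 CPM to 6.79, 7.26 and 7.38. Tpm1, a tropomyosin, fell 1.61-fold from 775 to 481 CPM, Cnn2 2.23-fold, and Tagln and Myl9 by 2.37 and 3.84. Mylk and Myh10 rose by 0.89 and 0.31, and Srf and its cofactor genes Mrtfa and Mrtfb were not called (log2 -0.12, -0.06 and 0.10). Without DNTCF4 replicate 2, Srf fell by 0.17 and Mrtfb rose by 0.11. Mesenchymal identity genes were divided, with 5 higher and 6 lower of 14: Prrx1 rose 4.44-fold to 87.3 CPM and Twist2 by 1.91, and S100a4 fell 6.97-fold, Foxc1 2.35-fold and Vim 1.58-fold, while Snai1 was not called and rose by 0.23 without DNTCF4 replicate 1. Of integrin and laminin genes 7 rose and 10 fell of 23, among them the collagen receptor subunit gene Itga2, up from 1.59 ± 0.354 to 27 ± 0.593 CPM, and Itgb3, up 4.01-fold. Beside the counts of these lists, 31.0% of all genes tested were higher and 27.4% lower.

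Growth factor genes changed in both directions, beside 31.0% higher and 27.4% lower over all genes tested. Of 23 PDGF, VEGF, FGF and HGF genes 13 rose and 6 fell (median 0.54). Hgf, the ligand of the MET receptor, rose from 23.4, 23.3 and 21.4 CPM to 73.6, 63.6 and 65.1, while Met itself dropped from 488, 480 and 501 to 134, 114 and 123 together with its chromosomal neighbours, as described below. Vegfa rose from 751, 740 and 754 CPM to 1234, 1242 and 1268 and the receptor gene Flt1 3.05-fold, whereas Nrp1, a coreceptor, fell 3.36-fold. In the EGF family 7 of 13 fell and 3 rose (median -0.40): the ligand genes Epgn, Areg and Ereg fell by 1.93, 0.62 and 1.87, and Tgfa rose 2.1-fold to 24.6 CPM. Of 33 TGF-beta and BMP pathway genes 16 fell and 10 rose (median -0.12), with Bmp4 1.97-fold lower, the BMP antagonist gene Grem1 1.84-fold lower and the activin gene Inhba 1.98-fold higher. Among insulin-like growth factor genes Igf1 and Igfbp2 fell 21.1-fold and 25.6-fold from 3.32 and 7.05 CPM.

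Subunits of PRC2, the complex that methylates H3K27 and contains EZH2, rose in 10 of 12 cases and fell in 1, with a median log2 change of 0.35. The steps were small in the core: Ezh2 stood at 57.1, 56 and 59.1 CPM against 68.4, 62.7 and 64.9 (1.14-fold, log2 0.19, SE 0.053, adjusted p = 0.00677), Eed at 44.8, 44.8 and 45.1 against 50.2, 49.9 and 49.4, and Suz12 rose 1.31-fold with DNTCF4 replicate 1 (109 CPM) above the others (78.9 and 82.9). Groups did not overlap in any of these 3 genes, as in 60.1% of all genes tested. The paralogue Ezh1 rose 1.42-fold and the accessory subunit genes Mtf2, Jarid2 and Epop 1.56-fold, 1.39-fold and 2.42-fold, Epop from 2.07 ± 0.16 CPM. Phf19 fell 1.36-fold and Rbbp7 was not called. Without DNTCF4 replicate 1 the median was 0.25, with 10 higher and 2 lower (Rbbp7 at -0.10). Without Vector replicate 2, Ezh2 was no longer called (log2 0.15). Of the 8 demethylase and MLL3/4 genes 4 rose, among them Kdm6a by 0.42 and Kdm6b by 0.30, and Kmt2c fell by 0.45.

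Iron and redox genes contained the largest gain of the comparison. Fth1, the ferritin heavy chain (chromosome 19, 9980598 to 9985098), went from 13399, 14106 and 13416 CPM to 31126, 31738 and 31753 (2.31-fold, log2 1.21, SE 0.031, adjusted p = 4.01e-14), and the light chain gene Ftl1 moved the other way, from 5111, 5383 and 5146 to 3021, 3550 and 3235. Both differences were many times the spread within groups. Ftl1 and Fth1 have many processed pseudogenes that can share their reads. The transferrin gene Trf rose 5.16-fold to 77.4 ± 1.78 CPM and its receptor Tfrc 1.69-fold, and the list as a whole was even, 8 higher and 8 lower of 19. Antioxidant genes under NRF2 and those of glutathione fell in 16 of 26 cases and rose in 7 (median -0.31), including Srxn1 1.96-fold, Gclm by 0.65 and Nqo1 by 0.87. Sod2, the mitochondrial superoxide dismutase and an NF-kappaB target, rose 2.38-fold to 262 ± 4.23 CPM and the cystine transporter gene Slc7a11 1.9-fold.

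Metabolic and biosynthetic lists moved by small steps. Over all genes tested 31.0% were higher and 27.4% lower. Oxidative phosphorylation genes fell in 14 of 29 cases with 0 rises (median -0.11), Atp5g1 1.58-fold and Atp5b 1.22-fold, and ribosome biogenesis genes fell in 18 of 30 and rose in 2 (median -0.22). Of 26 lysosome genes 15 fell and 3 rose (median -0.15), with the cathepsin genes Ctsl and Ctsb 1.4-fold and 1.39-fold lower, and cholesterol synthesis genes fell in 8 of 23 and rose in 2. Of 25 glycolysis and hypoxia genes 11 rose and 8 fell (median -0.01): Ndrg1 rose 2.25-fold, Hif1a 1.87-fold and Slc2a1 1.59-fold, while Ldha fell by 0.17 and Gapdh by 0.20, a call that Gapdh lost without Vector replicate 2 or 3 (-0.19 and -0.20). Of 30 genes for G1/S and DNA replication 14 rose and 1 fell (median 0.12). Among 30 G2/M genes 9 fell, a share near that over all genes tested, 4 rose and 17 were not called (median -0.06). Ccna2 and Aurka were lower by 0.32 and 0.30, and without DNTCF4 replicate 1 13 members fell and 2 rose. The CDK inhibitor genes Cdkn1a and Cdkn2c rose 2.22-fold and 1.53-fold, and Cdkn2a and Cdkn2b fell by 0.44 and 0.67. Trp53 itself was almost absent, at a mean of 0.025 CPM in Vector and 0.023 in DNTCF4, and is not among the genes tested.

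Several of the largest single changes belonged to no list. Cck, the gut and brain peptide hormone cholecystokinin, rose from 11.5, 12.1 and 11.9 CPM to 354, 408 and 374, and Dapk1, a calmodulin-dependent kinase of cell death, from 0.296 ± 0.0382 to 22.2 ± 0.92. The progenitor surface gene Cd34 rose 37.9-fold to 24.5 ± 1.67 CPM and the neural transcription factor gene Sox11 31.8-fold to 22.5 ± 0.422, with Clec4e, a C-type lectin receptor usually found on macrophages, 32-fold up at 26.4 ± 0.172 CPM. The sums of macrophage markers, given above, overlapped between the groups. In the other direction, nonagouti (a), an antagonist of melanocortin receptors, fell from 187, 187 and 184 CPM to 11.1, 15.4 and 14.4, Dio2, which activates thyroid hormone, from 58.8, 58.5 and 58.5 to 9.36, 7.96 and 8.78, and the water channel gene Aqp1 15.7-fold. Hhip, a decoy receptor of Hedgehog ligands, fell 8.62-fold from 12.5 ± 1.02 CPM, and Scara5 and Itih2 21-fold and 11.9-fold. Trp63, which marks basal epithelium, fell 9.33-fold from 8.26 ± 0.507 to 0.881 ± 0.131 CPM.

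Changed genes were not spread evenly over the genome. On chromosome 19, 46% of 513 genes tested were higher and 17.2% lower, on chromosome 16 43.8% and 20.9%, on chromosome 18 41% and 19.3%, and on chromosome 8 39.8% and 19.1%. Chromosome 13 leaned the other way, with 22.1% higher and 35.1% lower, and so did chromosome 7 with 22.8% and 32.4%. Among the autosomes and X, the median log2 change ran from 0.17 on chromosome 19 to -0.07 on chromosome 13. Of 15 mitochondrial genes 2 were higher and 9 lower; mt-Co1, up 1.1-fold, lost its call without DNTCF4 replicate 1 (log2 0.08).

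**Figure D4:**
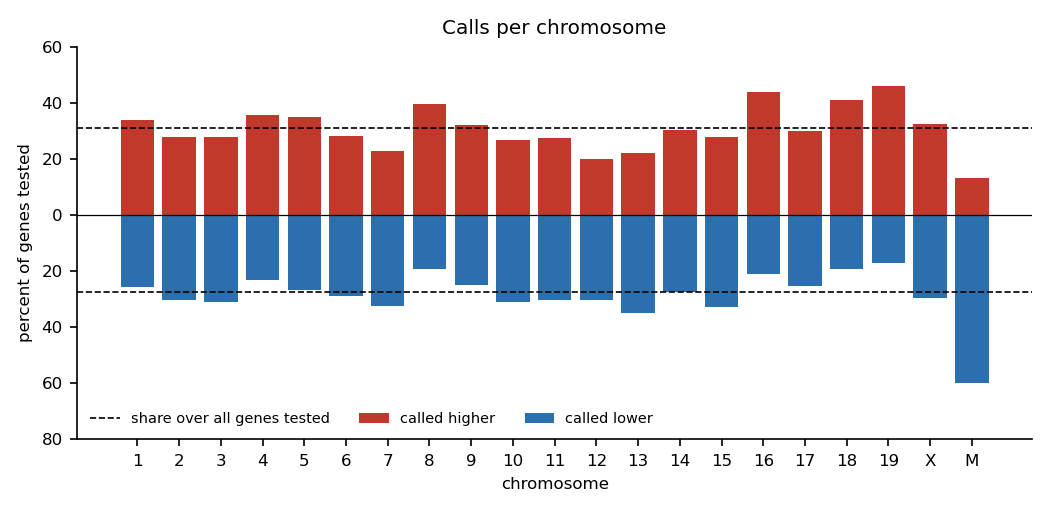
Percent of the genes tested on each chromosome that were called higher (up, red) or lower (down, blue) in DNTCF4, M being the mitochondrial genome with 15 genes; dashed lines mark the shares over all genes. Chromosome 19 has the highest share of rises among the nuclear chromosomes drawn (46%) and chromosome 13 the highest share of falls (35.1%).

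A block on chromosome 6 fell as a unit. Between 16777524 and 17943025, 9 neighbouring genes tested fell by 2-fold or more without a break: Gm36669, Gm4876, Tes, Cav2, Cav1, Met, Capza2, St7 and Gm43844. Tes, encoding the focal adhesion protein testin, stood at 428, 426 and 428 CPM in Vector and 76.9, 71.6 and 70.6 in DNTCF4 (5.85-fold). Cav1, the main caveolin, went from 624, 624 and 630 to 118, 97.9 and 101 (5.93-fold), and Capza2, a subunit of the actin capping protein, from 814, 789 and 790 to 209, 161 and 167 (4.46-fold). Cav2 and St7 fell 4.83-fold and 4.42-fold and Met 3.97-fold, so the 6 genes of the run that are not predicted models fell by between 3.97-fold and 5.93-fold. Lsm8, 1.38 Mb beyond Met and outside the run, fell 3.81-fold, although the predicted gene Gm20186 directly beside it rose by 0.52. Between St7 and Lsm8, the weakly expressed Cttnbp2 had 133 counts over the Vector libraries and 1 in DNTCF4, Gm43843 averaged 2.58 CPM and had no count in DNTCF4, and Cftr was not called. Cttnbp2 and Gm43843 were highest in Vector replicate 2 (2.05 and 4 CPM), as were the receptor genes described below. Further out the falls did not continue: Mdfic, 1.74 Mb before Met, changed by -0.16 and Ing3 and Fam3c, 4.49 and 4.84 Mb after it, by 0.31 and 0.48, while the weak Tspan12 rose from 0.0775 ± 0.0748 to 1.97 ± 0.296 CPM. In the groups with a second construct the block stayed at the DNTCF4 level, Met at 139 and 143 CPM and Cav1 at 115 and 112. Counts per gene cannot tell fewer transcripts per gene copy from fewer copies of the stretch.

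**Figure D5:**
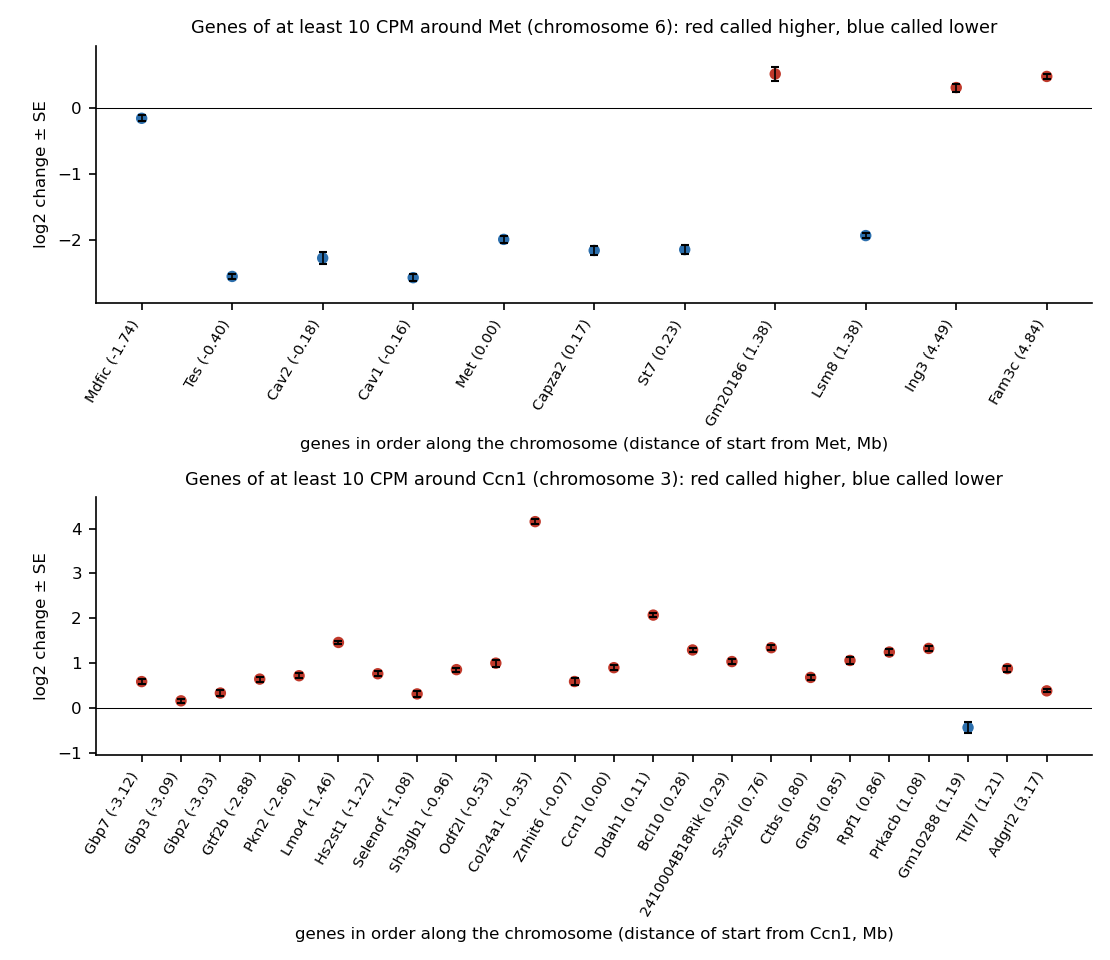
Fitted log2 change in DNTCF4 over Vector, with its SE, of each gene of at least 10 CPM around Met on chromosome 6 (top) and around Ccn1 on chromosome 3 (bottom), in order along the chromosome with the distance of the gene's start in Mb. Tes to St7 and Lsm8 lie between -1.93 and -2.57, with Mdfic, Gm20186, Ing3 and Fam3c between -0.16 and 0.52. Around Ccn1, between ends chosen by hand, 23 of 24 genes were called higher.

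On chromosome 3 a longer stretch was higher. From Gbp7 to Adgrl2 (142530342 to 148990555), 24 genes of at least 10 CPM were tested, 23 of which rose and 1 of which fell (a predicted model, Gm10288), with a median log2 change of 0.87. These ends were chosen by hand and not by a rule. The transcription cofactor gene Lmo4 went from 102, 102 and 104 CPM to 285, 280 and 279, the kinase subunit gene Prkacb from 130, 131 and 133 to 367, 305 and 319, and Ddah1, which degrades an inhibitor of nitric oxide synthase, from 33.2, 33.1 and 34.6 to 134, 144 and 146. Col24a1 rose 17.8-fold to 85.7 ± 4.76 CPM. The rises of Ccn1 (1.86-fold) and Bcl10 (2.45-fold) given above are of a size with those of unrelated neighbours such as Ssx2ip and Gng5. Running medians over 7 neighbouring genes of at least 10 CPM, added after the data had been seen, passed 0.75 in either direction in 38 of 9148 windows (0.415%), and both stretches were among them. By that rule the chromosome 3 stretch ran from 142765045 to 150073542, with 20 genes higher and 2 lower of 22. Another such stretch held 10 genes on chromosome 13, from 31556134 to 34002794, all lower, among them the forkhead genes Foxq1, Foxf2 and Foxc1 and the enzyme gene Gmds (2.06-fold, 1.39-fold, 2.35-fold and 2.55-fold). Serpinb9b, shown above for its TCF/LEF letters, is in this stretch too. Acta2, Ifit1 and Ifit3, given above, lie in a stretch of chromosome 19 found by the same rule (34192229 to 34975745). There 6 genes were lower and 1 higher of 8. S100a4 lies in one on chromosome 3 (90603771 to 93564643), with 5 genes lower and 2 higher of 7. The remaining runs of 4 or more genes that rose or fell by 2-fold or more were of near copies or predicted models for the most part, such as 14 genes of the Speer family region on chromosome 5 and the H2-Q genes on chromosome 17.

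The weakly expressed genes that fell need to be read beside the number of features with a count. Olfactory and vomeronasal receptor genes with at least 1 count numbered 550, 774 and 609 over the 3 Vector libraries, against 69, 81 and 77 for DNTCF4, and summed to 94.4, 288 and 144 CPM against 54.2, 46 and 46. Under a mean of 1 CPM, 374 genes fell and 331 rose of 1869, and 1 to 10 CPM the counts were 873 and 989 of 3387. Kcnq1ot1, an imprinted antisense transcript, lay at 2.58, 9.53 and 3.7 CPM in Vector and had no count in DNTCF4, at least 152-fold lower. Its Vector values follow the order of the receptor sums, with the highest value in Vector replicate 2. Whether other weakly expressed genes fell with the receptor genes for the same reason was not tested. Of the genes that fell by 2-fold or more, 192 had at least 10 CPM in the higher group. Levels near that limit are not far from the receptor genes, of which Vmn2r113 averaged 3.55 CPM in Vector. The predicted gene Gm10719, at 10.2 CPM in Vector, had 807 counts there and 1 in DNTCF4. Whether any of the 192 fell with the receptor genes was not tested either.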

How the data were processed

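RNA was sequenced from CCN6KOT cells, and the authors' deposited table holds expected counts per gene, all of them already whole. Per the submitters' processing notes the tools were STAR 2.7.8a, RSEM 1.3.3, DESeq2, cutadapt 2.3 and FastQC 0.11.8, with the GRCm38 build. A second deposited table holds log2 values (rlog) over 12 libraries, with 21754 genes; it served only as an alternative. Whether counting used strand is not stated by the labels, and overlapping and antisense genes cannot be told apart.

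Columns were matched to samples by the column names in the sample descriptions, with groups taken from the titles, and 5 rows of added construct sequences were left out. Genes with 10 or more counts in at least 3 of the 6 libraries were fitted with edgeR 4.0.16 (R 4.3.3), with TMM scaling, a mean for each of 4 groups over 12 libraries, and the quasi-likelihood test of DNTCF4 against Vector, adjusted by Benjamini-Hochberg with a threshold of 0.05. The 12 libraries share one estimate of the spread, with 8 residual degrees of freedom. On simulated counts of this comparison over 14537 genes, 35 of 50 genes changed 1.25-fold and 48 of 50 changed 2-fold were recovered, with 7 false calls. Few genes were changed in the simulation, all above a floor of mean counts, and every library had the fitted trend of spread. These figures therefore cover neither weak genes, nor a library that stands apart, nor changes in most genes. Totals and counting floors bound the precision of weak genes, and PCR reads are not independent molecules.

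The named genes were the 15 largest rises and 15 largest falls among called genes without overlap and with at least 10 CPM in the higher group (predicted models left out), the 8 largest gains and losses in CPM, up to 4 members of each list by p, every member of the TCF/LEF, Wnt feedback, PRC2 and CCN lists, genes of runs of neighbours, and the construct genes; other members were named for their role after their values were seen. The members and lists were chosen with earlier results of these data known. Positions are from GENCODE on GRCm38 and promoters from RefSeq on GRCm38.p6. Alternatives were DESeq2 1.42.0 (size factors and Wald test), limma 3.58.1 on rlog, other filters, the 6 libraries alone, a replicate block and leaving out each library. Replicate numbers did not pair the samples, as given in the closing section. A few genes that the naming rule or the lists cover are not reported here.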

Additional observations from a re-analysis of the deposited data

How the results depend on the processing

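Every alternative that kept the same genes left the counts of called genes within 1.5 times those reported, and no gene called in both had the opposite sign. Against 874 rises and 720 falls of 2-fold or more, limma on the shrunken rlog values gave 89 and 57. Testing genes without a filter gave 6422 falls, 3109 of them 2-fold or more, and a filter at a mean of 1 CPM gave 409 such falls; the first of these settings adds weak genes and the second removes them. With DESeq2 size factors 50.4% of calls were rises and without a filter 41.8%, against 4500 of 8490. Leaving out 1 library gave 3877 to 4528 rises, 833 to 883 of them 2-fold or more, and 708 to 748 falls of 2-fold or more. Eif2ak2 and Birc2 changed by 0.01 and 0.03 in the main fit and were not called. Without DNTCF4 replicate 1 both were called lower (-0.10, adjusted p = 0.018, and -0.11, adjusted p = 0.0149, by edgeR's quasi-likelihood test). Over all libraries left out in turn they ranged up to 0.063 and 0.096. Eif2ak2 was also just below 0, without a call, without Vector replicate 2 (-0.02) and with DESeq2 size factors (-0.002). The cause was not tested. Of 967 genes recomputed, leaving out DNTCF4 replicate 1 changed 55 to called, the most of any setting, and 27 to not called. In genes called at any size, the letters of TCF/LEF were held by 3.41% of those lower, AP-1 by 4.95% and NF-kappaB by 2.19% of those higher; at 10 CPM or more, a choice made after seeing the data, TCF/LEF stood at 0.633% of those higher and AP-1 at 10.6% of those lower. Runs of 3 or more neighbours numbered 14 higher and 17 lower, against 5 and 4 runs of 4 or more. With a replicate block 8416 genes were called; deviations of same-numbered libraries correlated at -0.0658, 0.0165 and -0.0825, so the numbers do not pair the samples.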
